A study of Mus musculus with 14 samples.

Results

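The genes described here are 32 mouse genes of DNA damage signalling and repair, followed in purified hepatocytes that had lost the splicing factor SRSF1. They were chosen by name: each transcript whose gene symbol is on the list was taken, and a gene's level is the sum over its transcripts. All 32 symbols were found, among 54446 genes in all, with 233 of 137767 transcripts. Levels are in TPM, a unit in which transcript abundances, corrected for length, add up to a fixed total in each library.

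RNA came from 14 libraries of C57BL/6 mice in 6 groups. The HKO mice carry srsf1f/f and albcre+/-, so that Cre made under the albumin promoter deletes Srsf1 in hepatocytes, and their controls carry albcre+/- alone; at postnatal day 10 (P10) and at 1 month each of these groups has 2 libraries. In the acute model all mice are srsf1f/f and were given an AAV8 vector with the hepatocyte promoter TBG at 8 weeks, then sampled 2 weeks later, at 10 weeks; 3 libraries come from mice given iCRE (acHKO) and 3 from mice given GFP. The labels name no floxed allele in the HKO controls, so the floxed line and the loss of Srsf1 cannot be told apart there, and neither can iCRE itself and the loss of Srsf1 in the acute model. Nothing in the labels says that replicates are separate animals, so p-values measure the spread between these libraries, which may be technical.

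The damage response begins with kinases. ATM answers to double-strand breaks and ATR to stretches of single-stranded DNA, and they pass the signal to the checkpoint kinases CHK2 and CHK1. The complex of MRE11, RAD50 and NBS1 binds broken ends, and phosphorylated H2AX, MDC1 and 53BP1 mark the chromatin around them. Breaks are closed by end joining, which works at any time in the cell cycle, or by homologous recombination, which needs a sister copy and so is used mainly by dividing cells. Fanconi anaemia proteins handle crosslinks between strands, and base excision and mismatch repair correct single bases. Most adult hepatocytes are not dividing, while hepatocytes of pups still are.

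Srsf1 itself was lower in the knockouts in each comparison, without overlap. It measured 29.98 and 23.4 TPM in HKO against 43.6 and 46.4 TPM in control at P10, 7.74 and 9.17 TPM in HKO against 23.2 and 20.01 TPM in control at 1 month, and 3.69, 5.34 and 4.16 TPM in acHKO against 16.5, 29.7 and 32.3 TPM in GFP. Sequencing depth is unknown, because TPM do not keep it. Replicate 2 of HKO at P10 stood apart from the other 13 libraries: its Xist level was 74.7 TPM, against at most 0.0147 TPM in those, and 4 Y-linked genes together reached 0.144 TPM, against at least 24.9 TPM. Its Hba-a1 level was 582.8 TPM, against 45.6 to 95.5 TPM in the other P10 libraries. Alb, the albumin gene that defines hepatocytes, ranged between 19437 and 83008 TPM over the 14 libraries.

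TPM are parts of a fixed total, and the middle of the table moved between groups. Over all genes tested the log2 fold change had a median of 0.25 in HKO against control at P10, -0.001 at 1 month, -0.36 in acHKO against GFP, and -0.43 in 1-month against P10 controls. Calls are therefore given on the deposited TPM and again after median-ratio rescaling, which sets the median gene level between libraries. Genes were tested with limma on log2(TPM + 1) where the libraries in the fit averaged at least 1 TPM, and called when the Benjamini-Hochberg adjusted p over all genes tested was under 0.05. A fold change on this scale understates the change of a low gene.

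Levels of the members spread widely within adult hepatocytes. In GFP hepatocytes Xrcc5 and Xrcc6, the Ku subunits that hold broken ends, measured 5.01 to 8.78 and 4.31 to 6.96 TPM. Nbn, which encodes NBS1, measured 5.14 to 8.52 TPM there, and Parp1, whose enzyme binds strand breaks and builds poly(ADP-ribose), 5.77 to 8.72 TPM. In the same libraries Brca1 measured 0.5003 to 0.519, Brca2 0.259 to 0.842, Rad51c 0.201 to 0.45996, Bard1 0.0333 to 0.0477 and Exo1 0.00402 to 0.0154 TPM. The order did not follow role alone: Prkdc, the catalytic subunit of the DNA-dependent kinase of end joining, measured 0.478 to 0.788 TPM, within the range of Brca2, and Mdc1 0.578 to 1.44 TPM, which overlapped with it.

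**Figure D1:**
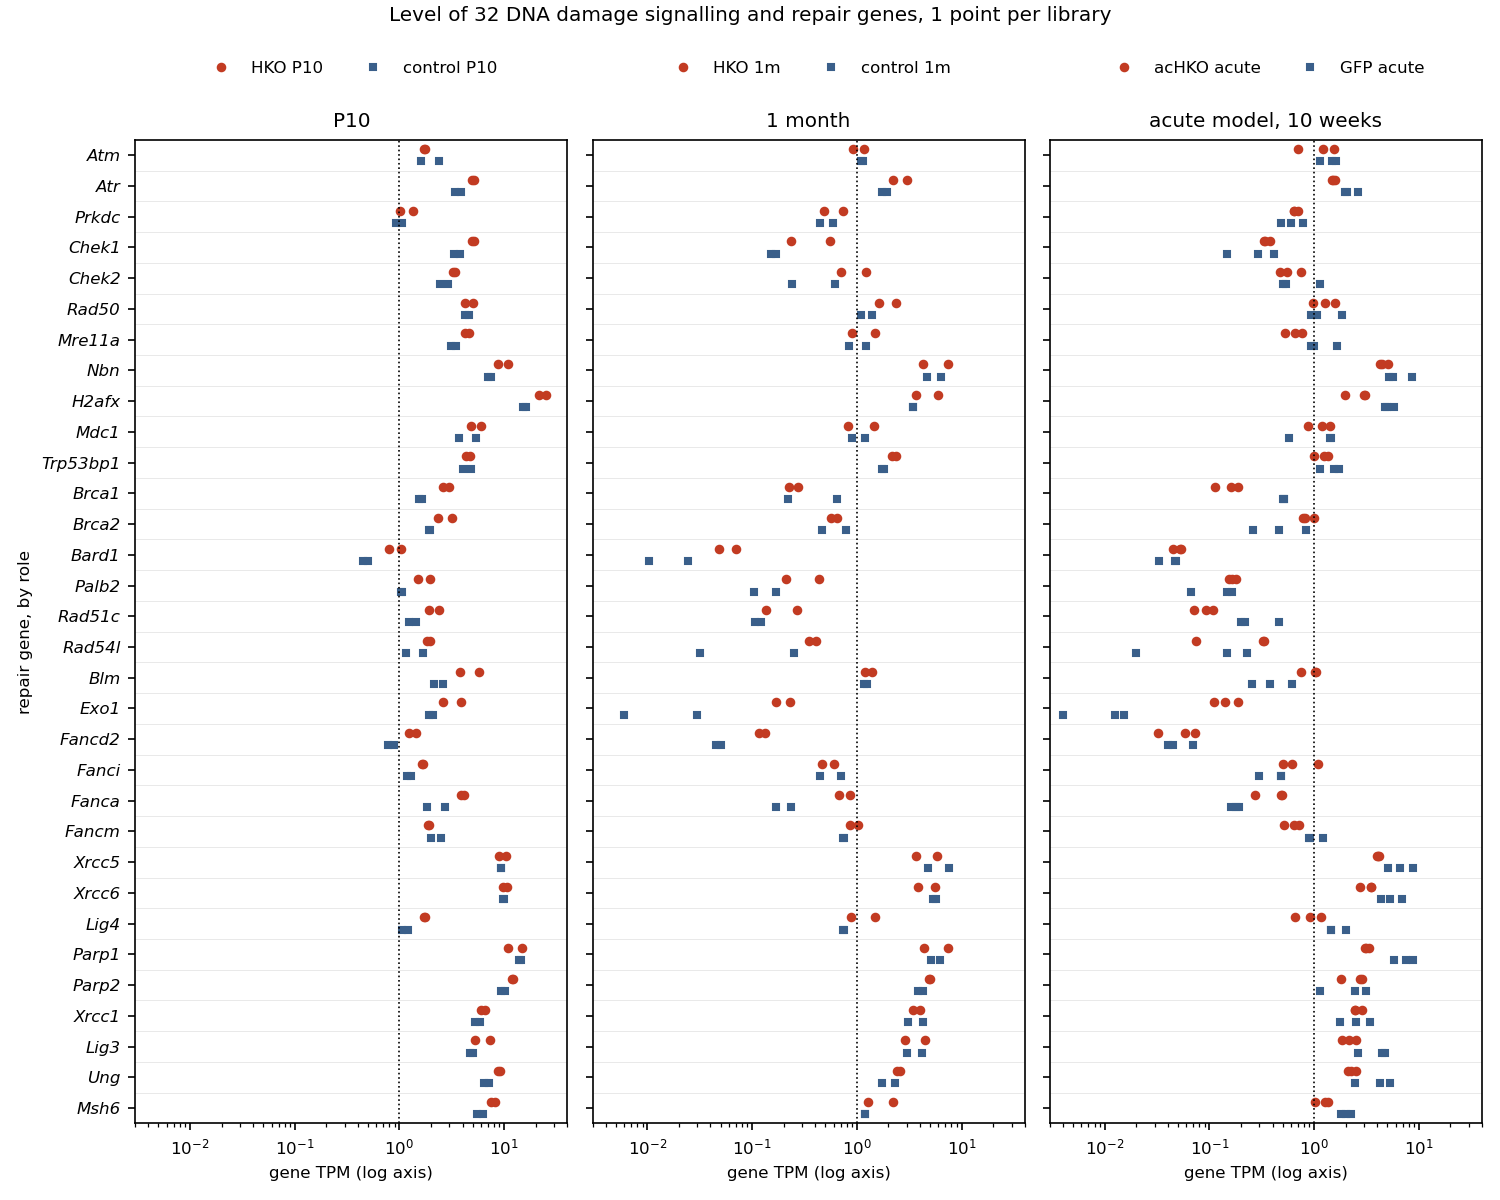
Level of each of the 32 repair genes in every library, in TPM on a log axis, in 3 panels with HKO over control at P10 and 1 month and acHKO over GFP; the dotted line marks 1 TPM. Exo1 points run over 0.109 to 0.189 TPM in acHKO and 0.00402 to 0.0154 TPM in GFP, and Xrcc5 points over 3.94 to 4.17 TPM in acHKO and 5.01 to 8.78 TPM in GFP.

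Most of these genes were lower in older control hepatocytes. In albcre+/- controls, 21 of the 26 members tested were lower at 1 month than at P10 and 0 were higher, where 38.2% of all genes tested were lower and 6.08% higher; the median log2 fold change was -0.92 for the members and -0.43 for all genes. After rescaling 18 of 25 were lower and 0 higher (23.6% lower and 23.9% higher among all genes). The 1 TPM minimum was a mean over the 8 libraries of both ages, for members and all genes alike. Members such as Exo1 and Chek1 passed it through their P10 levels, which favours a lower call at 1 month. Libraries of 1-month controls lay wholly below those of P10 controls for 26 of 26 members tested and wholly above for 0, where 68.4% of all genes lay below and 13.4% above. All 32 members could be tested on rescaled values with a minimum of 0.1 TPM and 0.1 TPM added before the logarithm, called the low-level test from here on; 23 of 32 were then lower and 0 higher (26.2% and 17.8% of all genes).

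Among the kinases Chek1, the S phase checkpoint kinase, measured 0.151 and 0.168 TPM in 1-month controls against 3.30 and 3.77 TPM in P10 controls (log2 fold change -1.97, SE 0.17, limma adjusted p = 5.16e-06). Chek2 measured 0.616 and 0.242 TPM at 1 month against 2.46 and 2.89 TPM at P10 (-1.37, SE 0.19, limma adjusted p = 0.000169). Neither gene's libraries overlapped between the ages. Atr (-0.70) and Atm (-0.48) fell too, and Atm did not pass after rescaling.

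Of the genes that mark breaks, H2afx, which encodes H2AX, measured 3.44 and 3.45 TPM in 1-month controls against 15.1 and 16.2 TPM in P10 controls (log2 fold change -1.90, SE 0.23, limma adjusted p = 5.4e-05). Rad50, the ATPase of the end-binding complex, measured 1.10 and 1.41 TPM at 1 month against 4.26 and 4.65 TPM at P10 (-1.28, SE 0.19, limma adjusted p = 0.000247). Mdc1 (-1.41), the nuclease gene Mre11a (-1.08) and Trp53bp1 (-0.97) also fell. Nbn, whose product joins RAD50 and MRE11, gave -0.34 and did not pass (limma adjusted p = 0.288); after rescaling it gave 0.13.

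Exo1, a nuclease that resects ends and works in mismatch repair, measured 0.00593 and 0.0298 TPM at 1 month against 2.07 and 1.91 TPM at P10 (log2 fold change -1.55, SE 0.17, limma adjusted p = 2.97e-05). Brca1, which directs breaks to recombination, measured 0.219 and 0.654 TPM at 1 month against 1.55 and 1.64 TPM at P10 (-0.87, SE 0.17, limma adjusted p = 0.00216). Brca2, a mediator of strand exchange, gave -0.87 and the helicase gene Blm -0.60, and both passed; Blm did not pass after rescaling. The other 4 recombination members, Bard1, Palb2, Rad51c and Rad54l, were under the 1 TPM minimum; in the low-level test their log2 fold changes were -2.06, -1.89, -2.35 and -2.41, and each was called.

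In the Fanconi group Fanca, a subunit of the core complex, measured 0.169 and 0.234 TPM in 1-month controls against 1.84 and 2.73 TPM in P10 controls (log2 fold change -1.44, SE 0.17, limma adjusted p = 5.89e-05). Fancm, a DNA translocase, gave -0.88 and Fanci -0.51, both called. Fanci fell under the minimum after rescaling, and in the low-level test it gave -0.52 and was not called (limma adjusted p = 0.160). Fancd2, the partner of Fanci, was under the minimum and was called in the low-level test (-2.34). In end joining Xrcc6 was called, at 5.30 and 5.65 TPM at 1 month against 9.70 and 9.89 TPM at P10 (-0.74, SE 0.21, limma adjusted p = 0.0142). Its partner Xrcc5 (-0.55, limma adjusted p = 0.0949) and Lig4, the ligase of end joining (-0.28, limma adjusted p = 0.197), were not.

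Msh6, a mismatch sensor, measured 1.20 and 1.20 TPM in 1-month controls against 5.45 and 6.27 TPM in P10 controls (log2 fold change -1.64, SE 0.20, limma adjusted p = 6.17e-05). Ung, which cuts uracil out of DNA, measured 1.74 and 2.30 TPM at 1 month against 6.46 and 7.16 TPM at P10 (-1.37, SE 0.18, limma adjusted p = 0.000103). Parp1 (-1.18) and its relative Parp2 (-1.08) fell as well. Xrcc1, the scaffold of single-strand break repair (-0.50, limma adjusted p = 0.0571), and its partner ligase Lig3 (-0.36, limma adjusted p = 0.219) did not pass.

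**Figure D2:**
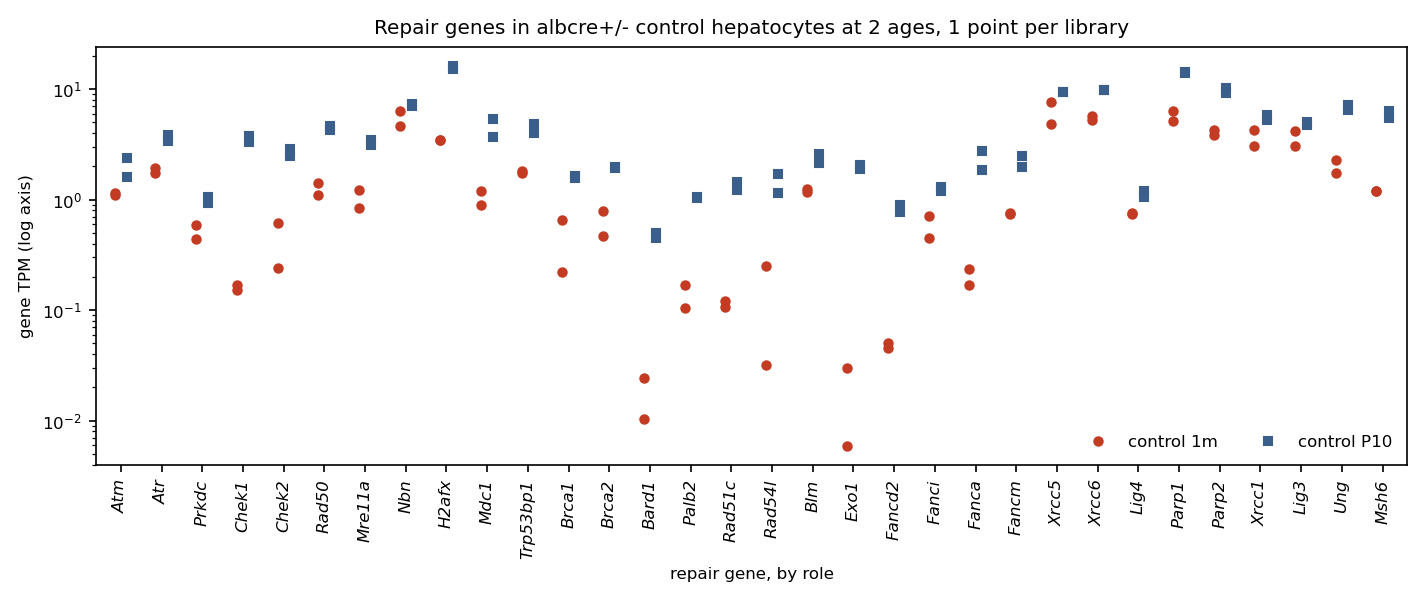
Level of the 32 repair genes in albcre+/- control hepatocytes, in TPM on a log axis, with 1 point per library of 1-month and P10 controls. For each member both 1-month points lie under both P10 points, closely for Nbn (4.68 and 6.37 TPM at 1 month against 6.98 and 7.40 TPM at P10) and widely for Exo1.

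Other cells and cell division differed between the same libraries. All 21 proliferation markers tested were lower in 1-month than in P10 controls. In 1-month against P10 controls 11 Kupffer cell and macrophage markers summed to 15.1 to 18.4 against 394 to 414 TPM and 8 neutrophil markers to 0.414 to 0.512 against 176 to 245 TPM. Stellate cell, endothelial and bile duct markers, 8 each, summed to 4.82 to 5.01 against 114 to 127, 7.90 to 9.59 against 81.8 to 81.96 and 1.59 to 1.97 against 57.6 to 70.2 TPM. T and NK cell markers, 6 in all, summed to 0.435 to 0.662 against 1.88 to 1.95 TPM with 5 of 6 wholly below, and 5 B and plasma cell markers to 0.210 to 0.285 against 4.49 to 7.38 TPM with 5 of 5 below. All markers of the Kupffer, neutrophil, stellate, endothelial and bile duct lists lay wholly below in 1-month controls, and Ltf, a neutrophil gene, and Cldn4 and Cldn7, of bile duct cells, were at 0 there. Fewer cells of a type and less RNA per cell cannot be told apart in bulk samples. The part of these cells in the lower levels of the repair genes was not tested.

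Promoters of the members were searched for letters of the site of E2F factors, which drive genes of DNA synthesis. The letters were TTTCCCGC, TTTGGCGC, TTTCGCGC and TTTGCCGC, on both strands of the 250 bases before each RefSeq start site on GRCm38.p6. Of 26 members with an entry 5 held such letters (19.2%), against 517 of all 27025 promoters (1.91%). They were Bard1, Brca2, Chek2, Mdc1 and Xrcc6, each of which was called lower in 1-month controls, Bard1 in the low-level test. So were most members, with 21 of 26 tested and 23 of 32 in the low-level test. A link between the letters and the fall with age was not tested. CCAAT, the letters of the NF-Y site, stood on either strand in 12 of 26 members (46.2%), against 34.5% of all promoters. A match describes letters and does not show binding. The 4 stretches that lie outside every annotated exon are shown over 60 bases, 5′ to 3′ on the gene's strand, with the E2F letters in capitals.
Bard1, chr1:71103152-71103211, minus strand: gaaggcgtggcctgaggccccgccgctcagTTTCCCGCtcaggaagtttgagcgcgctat
Brca2, chr5:150522423-150522482, plus strand: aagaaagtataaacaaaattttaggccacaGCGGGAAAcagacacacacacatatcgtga
Chek2, chr5:110839801-110839860, plus strand: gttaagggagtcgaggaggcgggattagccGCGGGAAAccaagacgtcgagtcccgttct
Mdc1, chr17:35841438-35841497, plus strand: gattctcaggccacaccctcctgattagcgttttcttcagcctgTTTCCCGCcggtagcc
All 4 hold the same 8 letters, read directly in Bard1 and Mdc1 and on the opposite strand in Brca2 and Chek2. The letters end 9 bases before the start site in Mdc1, 145 in Chek2, 161 in Brca2 and 202 in Bard1.

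At P10 a recombination helicase and a Fanconi core gene were higher in HKO on the deposited TPM, and neither call held after rescaling. Of 26 members tested 2 were higher and 0 lower, where 10.8% of all genes were higher and 1.87% lower, so the members' share was near the background. Their median log2 fold change was 0.31, beside 0.25 for all genes. HKO libraries lay wholly above control libraries for 18 of 26 members and wholly below for 1, against 62.6% and 13.4% of all genes. After rescaling limma called 0 members in either direction (8.17% of all genes higher, 8.0% lower), with 5 of 25 at an unadjusted p under 0.05; the low-level test also called 0 of 32 (6.04% higher and 5.11% lower among all genes), with 4 at an unadjusted p under 0.05.

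Blm, which unwinds recombination intermediates, measured 3.76 and 5.78 TPM in HKO against 2.13 and 2.60 TPM in control at P10 (log2 fold change 0.76, SE 0.20, limma adjusted p = 0.0291). Fanca measured 3.87 and 4.13 TPM in HKO against 1.84 and 2.73 TPM in control (0.62, SE 0.17, limma adjusted p = 0.0413). Neither gene's libraries overlapped, and relative to the median gene the fold changes were 0.51 and 0.37. After rescaling Blm gave 0.51 (limma adjusted p = 0.128) and Fanca 0.38 (limma adjusted p = 0.137). Without replicate 2 of HKO they gave 0.50 (limma adjusted p = 0.265) and 0.58 (limma adjusted p = 0.172). No member was called higher without control replicate 1 or without control replicate 2, and without replicate 1 of HKO the calls were Blm (1.01, limma adjusted p = 0.0126) and Exo1 (0.71, limma adjusted p = 0.0320).

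Other members came close. Brca1 measured 2.59 and 2.97 TPM in HKO against 1.55 and 1.64 TPM in control, with no overlap (log2 fold change 0.54, limma adjusted p = 0.0667). Exo1 measured 2.63 and 3.89 TPM in HKO against 2.07 and 1.91 TPM in control, with no overlap (0.50, limma adjusted p = 0.0830). H2afx measured 21.3 and 25.1 TPM in HKO against 15.1 and 16.2 TPM in control (0.54, limma adjusted p = 0.145). Fancm was the member whose HKO libraries lay below, at 1.92 and 1.86 TPM in HKO against 1.98 and 2.48 TPM in control.

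The authors' deposited table for P10 rests on normalized counts; its header does not say which group is on top, and its values are read as knockout over control because Srsf1 is negative in all 3 tables of the authors (-1.07, -1.43 and -2.23 for P10, 1 month and acHKO). It has 3 of 32 members higher and 2 lower (13.4% and 11.8% of all genes). Higher in the authors' deposited table are Blm (log2 fold change 0.71), Bard1 (0.64) and Brca1 (0.49), and lower are Fancm (-0.55) and Parp1 (-0.45). Parp1 measured 14.8 and 10.8 TPM in HKO against 13.8 and 14.3 TPM in control, so that 1 HKO library was above and 1 below both controls.

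At 1 month no member was called on the deposited TPM. Limma called 0 of 26 higher and 0 lower, where 4.87% of all genes were higher and 1.99% lower; 2 members, Fanca and Chek2, had an unadjusted p under 0.05. HKO libraries lay wholly above control libraries for 13 of 26 members and wholly below for 0, against 21.1% and 15.6% of all genes, and the members' median log2 fold change was 0.13 beside -0.001 for all genes. After rescaling 3 of 25 members were higher and 0 lower (8.72% and 7.47% of all genes), namely Rad50 (0.44, limma adjusted p = 0.0291), Fanca (0.65, limma adjusted p = 0.0317) and Atr (0.36, limma adjusted p = 0.0411).

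Fanca measured 0.673 and 0.856 TPM in HKO against 0.169 and 0.234 TPM in control at 1 month. Rad50 measured 1.61 and 2.36 TPM in HKO against 1.10 and 1.41 TPM in control, and Atr 2.21 and 2.99 TPM in HKO against 1.75 and 1.94 TPM in control. For each of the 3 both HKO libraries lay above both controls. In the low-level test 4 of 32 members were higher and 0 lower (8.57% and 4.92% of all genes): the same 3 and Exo1 (1.55, limma adjusted p = 0.0313), which measured 0.232 and 0.167 TPM in HKO against 0.00593 and 0.0298 TPM in control. The authors' deposited table for 1 month has 2 of 32 members higher and 0 lower (8.97% and 4.53% of all genes), Exo1 (log2 fold change 3.74, adjusted p = 0.00153) and Fanca (1.85, adjusted p = 0.000232).

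Markers of division and of other cells were measured beside this. Mki67, made in cycling cells, measured 2.62 and 2.81 TPM in HKO against 0.0316 and 0.165 TPM in control at 1 month, and 16.2 and 21.02 TPM in HKO against 11.999 and 12.5 TPM in control at P10. At 1 month the Kupffer cell and macrophage markers summed to 52.1 to 145 TPM in HKO against 15.1 to 18.4 TPM in control, with 11 of 11 wholly above, and the bile duct markers to 20.6 to 35.1 TPM in HKO against 1.59 to 1.97 TPM in control, with 7 of 8 above. At P10 the bile duct sum was 130 to 165 TPM in HKO against 57.6 to 70.2 TPM in control, with 7 of 8 above. Stellate cell markers lay wholly above in HKO for 8 of 8 at 1 month and 6 of 8 at P10, and endothelial markers for 6 of 8 at 1 month and 3 of 8 at P10. Kupffer cell and macrophage markers lay above for 5 of 11 at P10. T and NK cell markers lay above for 3 of 6 at P10, and at 1 month 2 lay above and 1 below. Of 8 neutrophil markers 0 lay above or below at P10, and 1 each way at 1 month. B and plasma cell markers lay below for 4 of 5 at P10 and above for 4 of 5 at 1 month. Of 10 hepatocyte markers 9 lay wholly below in HKO at 1 month, and 6 below and 2 above at P10. Among all genes at the 1 TPM minimum 62.6% lay above and 13.4% below at P10, and 21.1% and 15.6% at 1 month. At P10 the counts above for endothelial, Kupffer cell and T and NK cell markers were under that share. The part of division and of other cells in the values of the repair genes was not tested.

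The HKO effect was not called different between the ages for any member. For the 1-month effect minus the P10 effect limma called 0 of 26 members higher and 0 lower, where 1.01% of all genes were higher and 1.8% lower. At an unadjusted p under 0.05 there were 2, Brca1 (difference of log2 fold changes -0.73, SE 0.25, limma adjusted p = 0.171) and Blm (-0.71, SE 0.28, limma adjusted p = 0.232). Brca1 measured 0.225 and 0.276 TPM in HKO against 0.219 and 0.654 TPM in control at 1 month, where its libraries overlapped.

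In adult mice Parp1 was lower after the acute knockout on both scales. Of 16 members tested 6 were lower and 0 higher in acHKO, where 34.8% of all genes were lower and 5.93% higher, so the members' share of lower calls was near the background. The median log2 fold change was -0.43 for the members and -0.36 for all genes. The acHKO libraries lay wholly below the GFP libraries for 9 of 16 members and wholly above for 0, against 47.1% and 6.61% of all genes. After rescaling 1 of 16, Parp1, was lower and 1, Xrcc1, higher (18.8% of all genes lower, 20.1% higher).

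**Figure D3:**
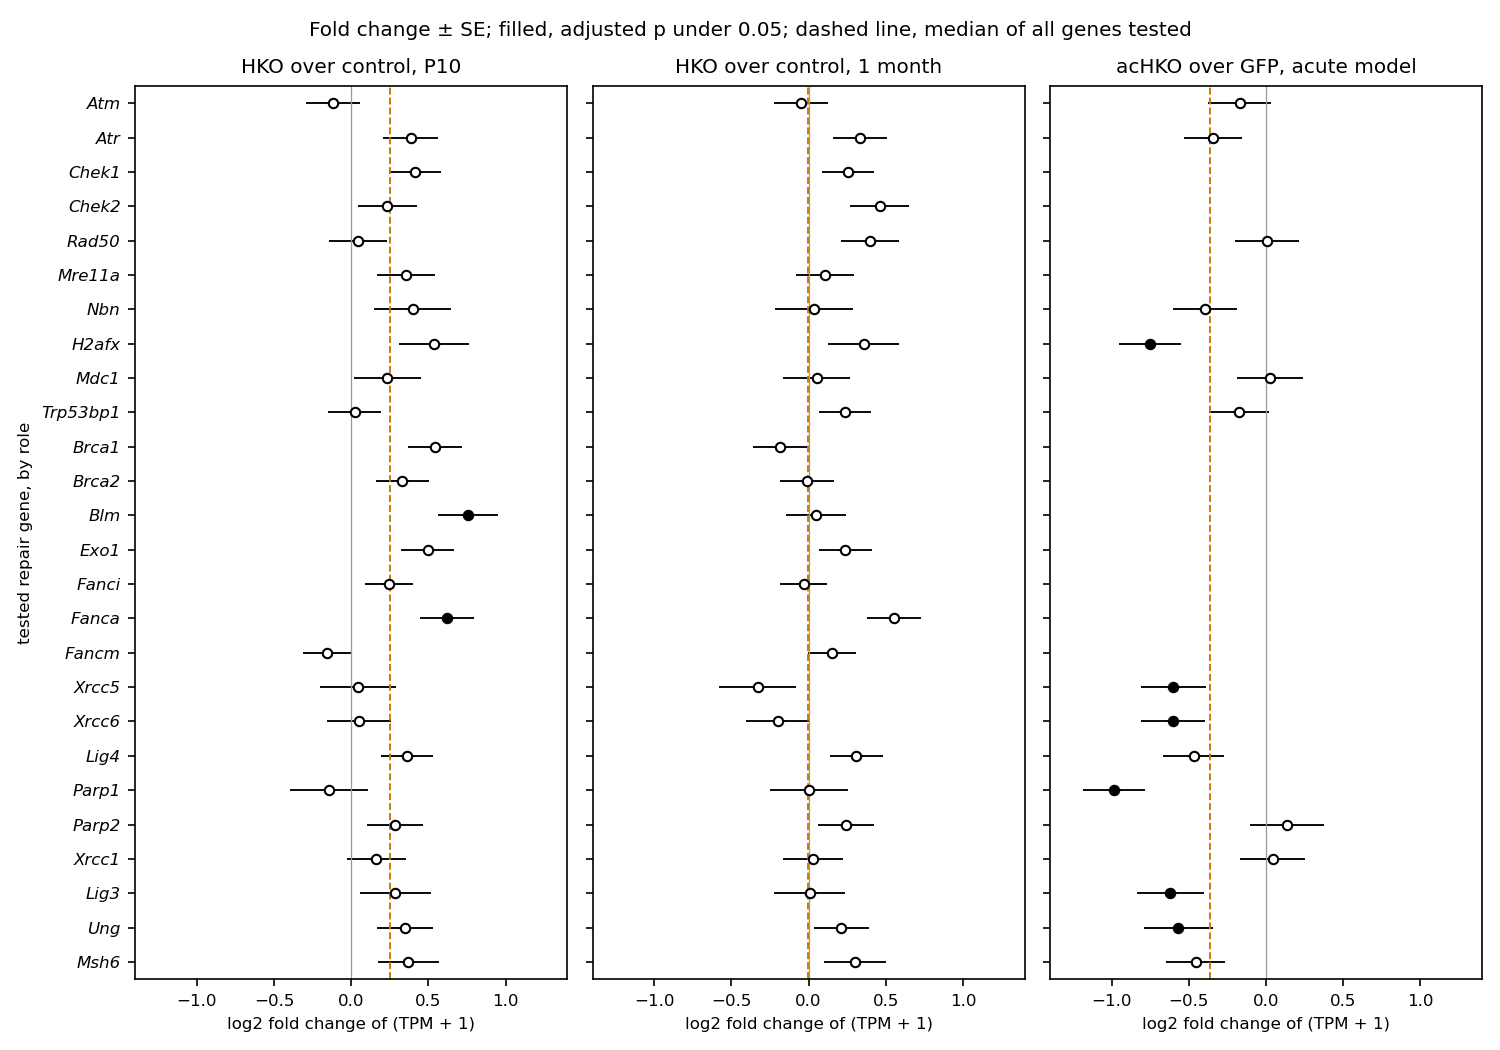
Log2 fold change of TPM + 1 with its SE for each tested repair gene, in HKO over control at P10 and 1 month (26 members each) and in acHKO over GFP (16 members). Filled points passed the adjusted p of 0.05, and the dashed line is the median of all genes tested, at 0.25, -0.001 and -0.36. Parp1 in the acute model lies -0.62 from that line.

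Parp1 measured 3.05, 3.12 and 3.36 TPM in acHKO against 5.77, 7.57 and 8.72 TPM in GFP (log2 fold change -0.99, SE 0.20, limma adjusted p = 0.00120). It was lower in 3 of 3 acHKO libraries, gave -0.62 relative to the median gene, passed after rescaling (-0.61, limma adjusted p = 0.00414), and passed with each library left out in turn. H2afx measured 3.07, 2.97 and 1.99 TPM in acHKO against 4.70, 5.76 and 4.96 TPM in GFP, with no overlap (-0.75, SE 0.20, limma adjusted p = 0.00789). After rescaling H2afx gave -0.40 and did not pass (limma adjusted p = 0.0706), nor did it without acHKO replicate 3 (limma adjusted p = 0.0717).

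Both Ku genes were called lower. Xrcc6 measured 3.50, 2.73 and 3.51 TPM in acHKO against 4.31, 5.24 and 6.96 TPM in GFP (log2 fold change -0.60, SE 0.21, limma adjusted p = 0.0290). Xrcc5 measured 4.04, 4.17 and 3.94 TPM in acHKO against 5.01, 6.63 and 8.78 TPM in GFP (-0.60, SE 0.21, limma adjusted p = 0.0302). Neither gene's libraries overlapped. Lig3 measured 2.51, 2.13 and 1.84 TPM in acHKO against 2.60, 4.47 and 4.72 TPM in GFP (-0.62, SE 0.22, limma adjusted p = 0.0303). Ung measured 2.53, 2.10 and 2.22 TPM in acHKO against 2.47, 5.30 and 4.27 TPM in GFP, and 1 GFP library lay within the acHKO range (-0.57, SE 0.22, limma adjusted p = 0.0499). Relative to the median gene Xrcc6, Xrcc5, Lig3 and Ung gave -0.24, -0.24, -0.26 and -0.21, and none of these 4 passed after rescaling. Without GFP replicate 1 there were 9 lower calls, these 6 with Lig4, Msh6 and Nbn. Without GFP replicate 2, GFP replicate 3 or acHKO replicate 2 the calls were Parp1 and H2afx. Without acHKO replicate 1 Lig3 joined them, and without acHKO replicate 3 Parp1 was left. The share of all genes called with a library left out is not given, so these counts have no background.

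The other 10 members tested were not called on the deposited TPM. Xrcc1 measured 2.46, 2.48 and 2.85 TPM in acHKO against 1.76, 2.51 and 3.38 TPM in GFP, so that its acHKO libraries lay within the GFP range, and was called higher after rescaling (0.37, limma adjusted p = 0.0473). Parp2 measured 1.78, 2.73 and 2.88 TPM in acHKO against 1.141, 2.43 and 3.13 TPM in GFP. Parp2, Atm, Atr, Rad50, Mdc1, Trp53bp1, Nbn, Lig4 and Msh6 were not called on either scale.

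The other 16 members averaged under 1 TPM in the acute libraries. The low-level test covered 29 of the 32 and called 4 higher and 2 lower (18.3% and 14.1% of all genes). Blm measured 0.746, 1.04 and 1.02 TPM in acHKO against 0.254, 0.382 and 0.614 TPM in GFP (log2 fold change 1.44, SE 0.24, limma adjusted p = 0.00789). Fanca measured 0.273, 0.485 and 0.491 TPM in acHKO against 0.160, 0.191 and 0.181 TPM in GFP (1.19, SE 0.28, limma adjusted p = 0.0222). The libraries of neither overlapped. Brca2 (1.1403) and Prkdc (0.49) were the other higher calls, and for both the libraries of the groups overlapped. Prkdc measured 0.635 to 0.700 TPM in acHKO, within its GFP range of 0.478 to 0.788 TPM, and the low-level test uses rescaled values. Parp1 was lower here as well.

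Brca1 was the other lower call. It measured 0.160, 0.188 and 0.112 TPM in acHKO against 0.512, 0.5003 and 0.519 TPM in GFP (log2 fold change in the low-level test -0.96, SE 0.22, limma adjusted p = 0.0206). Bard1, whose product pairs with BRCA1, measured 0.0528, 0.0532 and 0.0453 TPM in acHKO against 0.0468, 0.0333 and 0.0477 TPM in GFP, and these overlapped. Rad51c, which works in homologous recombination, measured 0.0707, 0.108 and 0.0932 TPM in acHKO against 0.219, 0.45996 and 0.201 TPM in GFP, with no overlap (-0.72, limma adjusted p = 0.127). Exo1 measured 0.109, 0.189 and 0.141 TPM in acHKO against 0.00402, 0.0126 and 0.0154 TPM in GFP, and averaged under 0.1 TPM.

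Some markers moved in the acute libraries as well. Mki67 measured 0.136, 0.119 and 0.204 TPM in acHKO against 0.0392, 0.0787 and 0.0472 TPM in GFP. Top2a, made in dividing cells, measured 0.198, 0.312 and 0.427 TPM in acHKO against 0.0582, 0.0729 and 0.0558 TPM in GFP. Neither gene's libraries overlapped, and both genes lay under the 1 TPM minimum. Of 21 proliferation markers 4 could be tested at that minimum, with 0 higher and 1 lower in acHKO on either scale. Among all genes 5.93% were higher and 34.8% lower, and 20.1% and 18.8% after rescaling. The 6 T and NK cell markers summed to 1.142 to 1.20 TPM in acHKO against 0.446 to 0.548 TPM in GFP, with 3 of 6 wholly above. The Kupffer cell and macrophage markers summed to 7.54 to 47.8 TPM in acHKO against 5.16 to 13.01 TPM in GFP, with 1 of 11 above. Of 10 hepatocyte markers 6 lay wholly below in acHKO. Bile duct markers lay above for 1 of 8 and below for 1, and neutrophil markers above for 1 of 8. No endothelial, stellate cell, or B and plasma cell marker lay wholly above or below. Among all genes at the 1 TPM minimum 47.1% lay below and 6.61% above. The part of division and of other cells in the values of Exo1, Blm, Fanca and the other members was not tested.

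The authors' deposited table for the acute model has 5 of 32 members higher and 9 lower (16.4% and 16.1% of all genes). Higher in the authors' deposited table are Exo1 (log2 fold change 4.17), Blm (1.53), Fanca (1.53), Brca2 (1.13) and Prkdc (0.41). Lower in the authors' deposited table are Brca1 (-1.46), Rad51c (-1.42), Parp1 (-0.90), H2afx (-0.67), Lig3 (-0.54), Mre11a (-0.54), Msh6 (-0.45), Xrcc6 (-0.44) and Xrcc5 (-0.42). It comes from the same libraries and is not independent of the TPM.

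**Figure D4:**
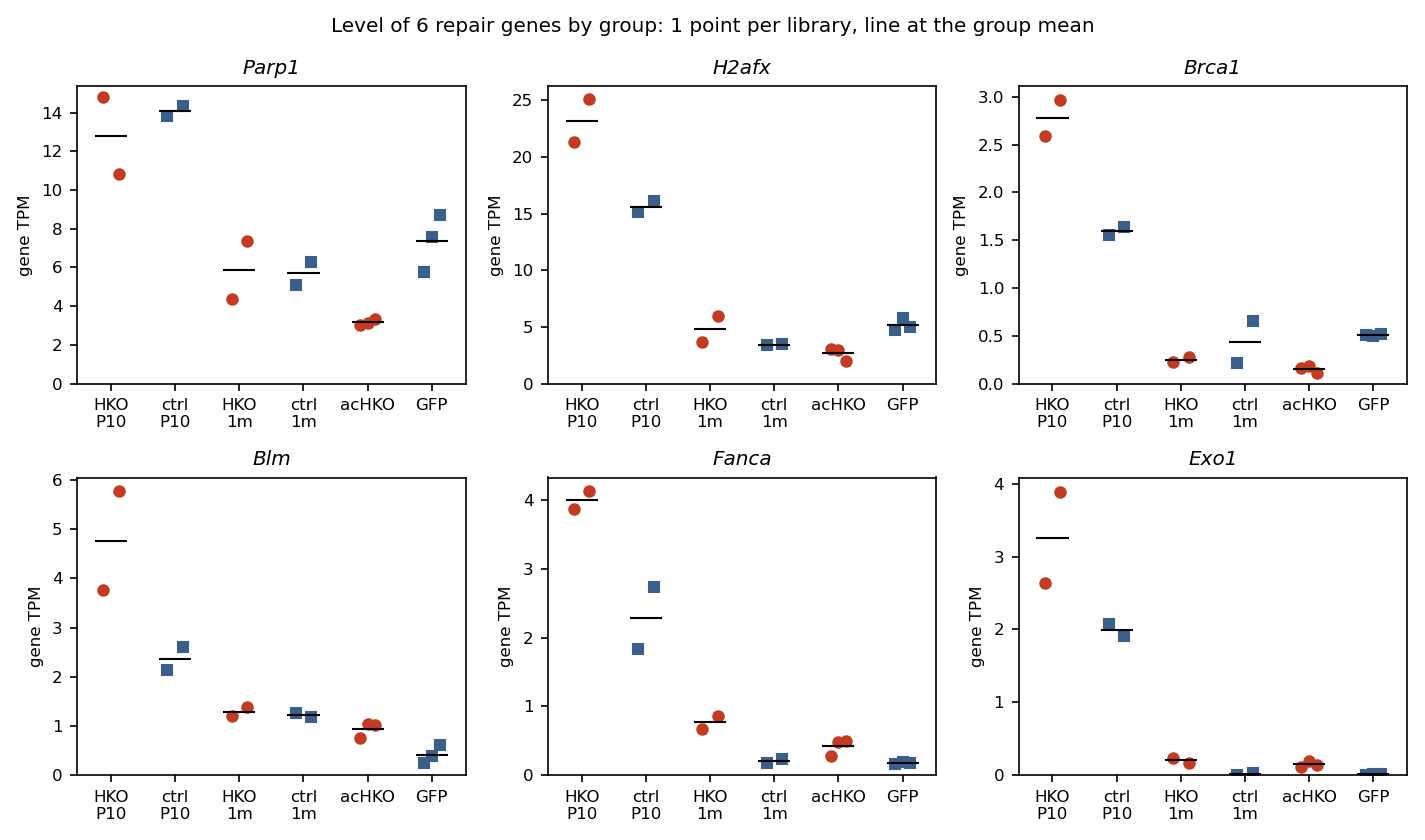
Level of Parp1, H2afx, Brca1, Blm, Fanca and Exo1 in every library, in TPM, with a line at each group mean and each knockout group left of its control. Parp1, H2afx and Brca1 lie lower in acHKO than in GFP, and Blm, Fanca and Exo1 higher, with no overlap.

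The acute effect minus the P10 effect was tested in a fit of all 14 libraries, added after the data had been seen. Of 23 members tested 8 were lower and 0 higher, where 31.8% of all genes were lower and 2.07% higher; the members' median difference was -0.36 and that of all genes -0.58. For H2afx the difference of log2 fold changes was -1.29 (SE 0.29, limma adjusted p = 0.00670), or -0.71 relative to the median gene. After rescaling limma called 0 of 22 members (11.1% of all genes higher, 11.0% lower), with 4 at an unadjusted p under 0.05. The low-level test called 1 of 32 lower, Brca1, and 0 higher (7.59% lower and 8.5% higher among all genes), with a difference of -1.50 (SE 0.42, limma adjusted p = 0.0357).

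SRSF1 is a splicing factor, so the spread of each gene's TPM over its transcripts was examined next. For genes with both protein_coding and other annotated transcripts, the share of TPM on the others was taken; these are transcripts with a retained intron, processed transcripts without a coding frame, and targets of nonsense-mediated decay. In the acute model this share was higher in all acHKO than in all GFP libraries for 8 of 10 members tested and lower for 0, where it was higher for 33.2% and lower for 10.4% of all genes. The median change was 15.6 percentage points for the members and 1.37 for all genes. The 10 members are those that averaged at least 1 TPM in the acute libraries. Of those under it, Blm, Brca2 and Exo1 also lay wholly higher in acHKO, and Rad51c lay wholly lower. Rad51c had 8.84%, 0 and 5.61% in acHKO against 62.5%, 60.3% and 23.3% in GFP. The others under the minimum with both kinds of transcript overlapped. The measure was chosen after the data had been seen, and 3 libraries against 3 cannot give an exact two-sided permutation p under 0.1 for a single gene.

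Kinases and break-marking genes were among the 8. The share for Atr was 30.4%, 29.6% and 26.3% in acHKO against 8.61%, 12.1% and 8.67% in GFP. For Rad50 it was 29.5%, 23.3% and 17.9% in acHKO against 3.03%, 4.56% and 1.73% in GFP. For Trp53bp1, which encodes 53BP1, it was 82.04%, 69.7% and 79.7% in acHKO against 57.98%, 52.9% and 61.8% in GFP. In each of the 3 the acHKO libraries lay wholly above, while the gene's total TPM was not called.

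Genes of single-strand break repair showed it too. Parp2 had 68.1%, 76.5% and 65.4% of its TPM on such transcripts in acHKO against 29.7%, 40.8% and 49.6% in GFP. Xrcc1 had 33.5%, 42.7% and 37.04% in acHKO against 18.4%, 29.8% and 28.3% in GFP. Atm, a kinase gene, had 56.98%, 29.4% and 38.7% in acHKO against 25.8%, 5.47% and 8.16% in GFP. Group means differed less for Parp1 (15.4% in acHKO against 10.8% in GFP) and Lig3 (8.23% in acHKO against 6.22% in GFP), and the libraries of Ung and Xrcc6 overlapped.

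**Figure D5:**
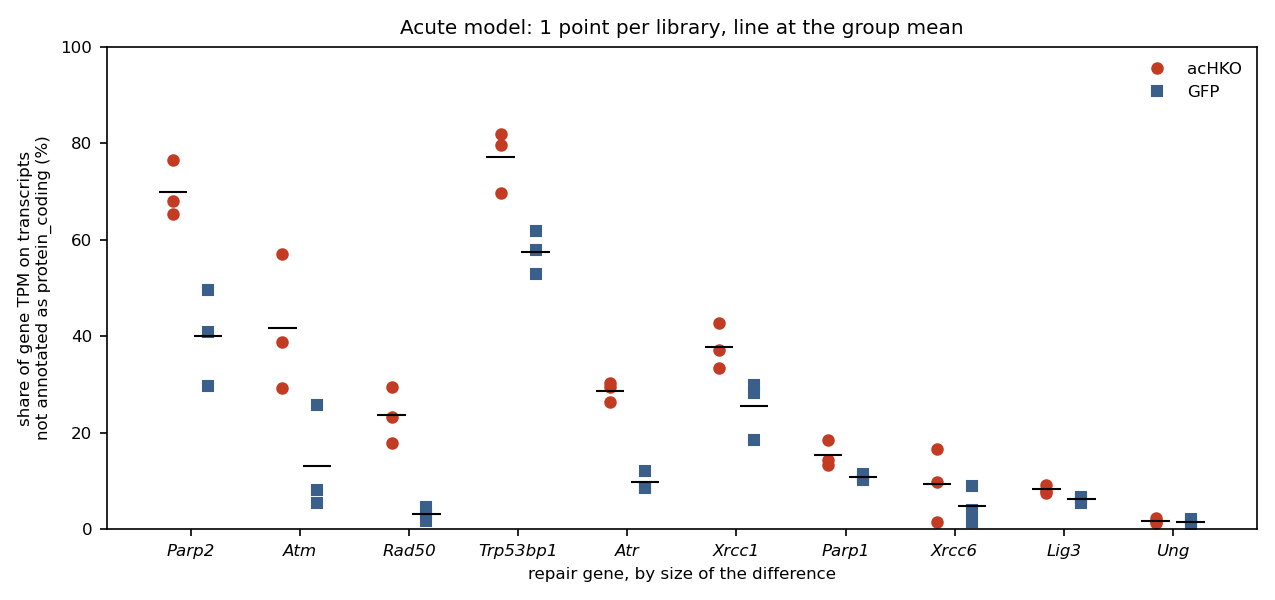
Share of each gene's TPM on transcripts not annotated as protein_coding, in percent, for the 10 repair genes tested in the acute model, with 1 point per acHKO and GFP library and a line at each group mean. The groups do not overlap for 8 genes, among them Parp2 with a mean of 69.99% in acHKO against 40.03% in GFP, and overlap for Xrcc6 and Ung.

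In the HKO model at P10 the share was higher in HKO, with no overlap, for 4 of 20 members (Blm, Rad50, Trp53bp1 and Xrcc6) and lower for 0, against 20.8% and 20.1% of all genes; the median change was 3.84 points for the members and 0.0574 for all genes. At 1 month it was higher for 4 of 20 (Atr, Exo1, Rad50 and Trp53bp1) and lower for 2 (Blm and Brca1), against 17.0% and 11.7% of all genes, with a median change of 0.155 points for the members and 0.258 for all genes. Rad50 averaged 16.3% in HKO against 7.43% in control at P10, and 17.7% in HKO against 5.65% in control at 1 month. Trp53bp1 averaged 68.6% in HKO against 53.9% in control at P10, and 73.7% in HKO against 61.8% in control at 1 month. Groups that do not overlap stay so when 1 library is left out, so leaving out libraries is no check of these counts. The 1 TPM minimum was a mean over all 8 libraries of the HKO model, and Exo1 and Brca1 passed it through their P10 levels. In 1-month controls Exo1 measured 0.00593 and 0.0298 TPM, so its share of 0 there rests on almost no RNA. Brca1 measured 0.225 and 0.276 TPM in HKO against 0.219 and 0.654 TPM in control at 1 month.

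Short transcripts carried much of the change. Rad50-203, a processed transcript of 404 bases, took 11.04%, 14.6% and 10.6% of Rad50 TPM in acHKO and was listed at 0 in all GFP libraries. Atr-212, with a retained intron, took 11.1%, 7.54% and 12.1% of Atr TPM in acHKO against 1.92%, 3.48% and 1.78% in GFP. Trp53bp1-210, a processed transcript of 682 bases, took 23.8%, 19.5% and 12.02% in acHKO against 7.65%, 6.87% and 5.97% in GFP. For these 3 no acHKO library overlapped with GFP. At a given TPM a short transcript stands for fewer reads than a long one (Rad50-201, the coding transcript, has 5153 bases), so a share of TPM is not a share of reads.

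The Atm transcript with the highest such share in acHKO is Atm-202, annotated as a retained intron, and it is shown because it makes plain what such a share rests on. It is spliced from 3 exons over chr9:53440105-53442560 on the minus strand of GRCm38 and has 281 bases. Capitals are the 242 bases that also lie in exons of the longest coding transcript, Atm-201, and the 39 bases in lower case at its 5′ end lie outside them.
Atm-202: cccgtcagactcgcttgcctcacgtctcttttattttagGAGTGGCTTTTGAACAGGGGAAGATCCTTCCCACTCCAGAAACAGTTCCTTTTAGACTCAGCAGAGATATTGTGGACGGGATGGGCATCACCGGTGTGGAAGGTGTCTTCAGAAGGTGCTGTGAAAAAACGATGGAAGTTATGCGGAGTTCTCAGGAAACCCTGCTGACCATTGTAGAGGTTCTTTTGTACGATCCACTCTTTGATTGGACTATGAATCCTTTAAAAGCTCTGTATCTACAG
A read within the capitals fits either transcript, so the split between them is an estimate. Atm-202 took 56.98%, 28.2% and 37.4% of Atm TPM in acHKO against 25.8%, 0 and 8.16% in GFP. It took 25.002% and 45.9% in HKO against 48.5% and 9.71% in control at P10, and 51.4% and 37.2% in HKO against 48.7% and 52.6% in control at 1 month, and the groups overlapped at both ages.

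Transcript usage was also tested with limma's diffSplice, and a gene was called when its adjusted p was under 0.05 and 1 transcript's share moved by at least 10 points. At the set minimum of 1 TPM per transcript 1 member, Ung, could be tested in the HKO model and 0 in the acute model, and limma called 0, with 0 at an unadjusted p under 0.05. With a minimum of 0.2 TPM, added after the data had been seen, diffSplice called 0 of 21 members at P10 (1.17% of all genes), with 2 at an unadjusted p under 0.05, and 0 of 21 at 1 month (0.424%), with 0 at an unadjusted p under 0.05. In the acute model it called 3 of 9 (33.7%), a share at the background. These were Parp2 (limma adjusted p = 0.0297), Atm (limma adjusted p = 0.0311) and Ung (limma adjusted p = 0.0470). The coding transcript Parp2-201 took 31.9%, 23.5% and 34.6% of Parp2 TPM in acHKO against 70.3%, 59.2% and 50.4% in GFP, with no overlap.

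Ung differed in the shares of its coding transcripts. Ung-201 and Ung-202 have separate first exons, which in mammals give a nuclear and a mitochondrial form of the enzyme. Ung-201 took 42.3%, 22.3% and 36.6% of Ung TPM in acHKO against 11.6%, 10.2% and 16.3% in GFP, with no overlap. Ung-202 took 42.9%, 38.4% and 44.7% in acHKO against 49.9%, 38.8% and 44.2% in GFP, with overlap. On average the coding transcript Ung-203 took 17.0% in acHKO against 27.2% in GFP, and Ung-204 took 5.52% against 14.2%. Both fell by more than Ung-202, which averaged 42.0% in acHKO against 44.3% in GFP. In TPM Ung-201 measured 1.07, 0.468 and 0.814 in acHKO against 0.286, 0.541 and 0.695 in GFP, which also overlapped. With a minimum of 0.5 TPM per transcript Ung was called as well (limma adjusted p = 0.0452). The first 60 coding bases, with the start codon in capitals, show how Ung-201 and Ung-202 begin.
Ung-201, first coding base at position 114130503 of chromosome 5, plus strand: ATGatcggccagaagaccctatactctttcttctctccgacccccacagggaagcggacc
Ung-202, first coding base at position 114131229 of chromosome 5, plus strand: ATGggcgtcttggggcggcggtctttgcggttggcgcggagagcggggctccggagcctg

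Further genes of the same pathways were read from 8 lists of 145 genes. At P10, 11 of 131 tested were higher in HKO and 0 lower (10.8% and 1.87% of all genes), and 6 and 0 after rescaling (8.17% and 8.0%), so the higher calls were no more frequent than among all genes. In end joining Rif1, which works with 53BP1, measured 11.1 and 11.9 TPM in HKO against 4.55 and 5.86 TPM in control (log2 fold change 1.01, SE 0.21, limma adjusted p = 0.0104). Mad2l2, a shieldin subunit, measured 11.9 and 12.8 TPM in HKO against 6.26 and 5.59 TPM in control (0.95, SE 0.21, limma adjusted p = 0.0144). In base excision Parp3 measured 14.9 and 11.9 TPM in HKO against 5.25 and 5.15 TPM in control (1.20, SE 0.22, limma adjusted p = 0.00550). For these 3 both HKO libraries lay above both controls. The translesion polymerase gene Polk (0.92), the alkylation repair gene Alkbh2 (0.90) and the cell cycle phosphatase gene Cdc25a (1.13) were, with these 3, the 6 called on both scales.

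At 1 month 2 of 131 pathway genes were higher and 0 lower, the recombination gene Rad51b (log2 fold change 1.85, limma adjusted p = 0.00167) and Ube2t, the ubiquitin-conjugating enzyme of the Fanconi pathway (0.69, limma adjusted p = 0.0205); after rescaling 14 were higher and 2 lower. Among all genes 4.87% were higher and 1.99% lower, and 8.72% and 7.47% after rescaling. In the acute model 2 of 100 were higher and 24 lower (5.93% and 34.8% of all genes), and 23 higher and 11 lower after rescaling (20.1% and 18.8%). Nhej1, the end joining factor XLF, measured 7.95, 4.98 and 4.21 TPM in acHKO against 13.3, 17.8 and 16.7 TPM in GFP (-1.37, limma adjusted p = 0.000208). Ddb1, of the damage-binding complex of nucleotide excision, measured 17.3, 15.8 and 14.8 TPM in acHKO against 32.6, 39.4 and 46.3 TPM in GFP (-1.24, limma adjusted p = 0.000170). Neither gene's libraries overlapped, and both passed after rescaling. Mad2l2 was higher in acHKO (0.87, limma adjusted p = 0.00301). In 1-month against P10 controls 64 of 131 were lower and 0 higher (38.2% and 6.08% of all genes), and 38 lower and 14 higher after rescaling (23.6% and 23.9%).

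Outputs of p53, the transcription factor that the damage kinases activate, were counted beside the repair genes. At P10 12 of 16 were higher in HKO and 0 lower, where 10.8% of all genes were higher and 1.87% lower; after rescaling 8 were higher and 1 lower, where 8.17% and 8.0% of all genes were. Among the higher was Phlda3, a p53 target that restrains AKT, at 5.27 and 6.12 TPM in HKO against 0.641 and 0.564 TPM in control (log2 fold change 2.06, limma adjusted p = 9.69e-05). At 1 month 1 of 16 was higher, Phlda3 (1.55, limma adjusted p = 0.000839), and 0 lower (4.87% and 1.99% of all genes), and after rescaling 6 were higher and 1 lower (8.72% and 7.47%). In the acute model 3 of 14 were higher and 2 lower (5.93% and 34.8% of all genes), and 6 and 1 after rescaling (20.1% and 18.8%). Cdkn1a, the p21 gene, measured 17.7, 30.98 and 4.43 TPM in acHKO against 2.16, 5.02 and 0.477 TPM in GFP (2.28, limma adjusted p = 0.00187), and 1 acHKO library lay within the GFP range.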

How the data were processed

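Purified hepatocytes of 14 libraries were sequenced as poly(A) RNA. Per the labels and the submitters' processing notes, the authors demultiplexed reads with bcl2fastq 2.17.1.14 and quantified them with kallisto 0.46.0 on GRCm38 (mm10), which gave the deposited table of transcript TPM; the annotation was matched here to GENCODE M21. The authors' deposited DESeq2 tables hold, per the file headers, a mean normalized count (a signal value), a log2 fold change, its standard error and test score, and a p-value with its adjusted value. For DESeq2 the version is not stated there.

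TPM were summed per gene and tested on log2(TPM + 1) with limma 3.58.1 in R 4.3.3 (trended empirical Bayes, two-sided, Benjamini-Hochberg over all genes that averaged 1 TPM or more in the fit). The HKO fit used 8 libraries (4 residual degrees of freedom), the acute fit 6 (4) and a later fit all 14 (8). The steps were tested on simulated data. Depth is unknown, so no counting interval is given. Values in every library are given for called members with the smallest p of their role group and for members that moved in opposite directions or changed usage, and up to 3 called genes of each pathway list are named; some further values were added after being seen. The members and lists were chosen with earlier results of these data known. Alternatives were rescaling, other pseudocounts and minimums, left-out libraries and a replicate block. One list of markers of another cell type is not reported here.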

Additional observations from a re-analysis of the deposited data

Results flagged for a closer look

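The acute and P10 effects differed for 8 of 23 members by the test of that difference, on the deposited TPM. All 8 were lower calls. Among all genes 31.8% were lower and 2.07% higher, so the members' share was near the background. The acute effect minus the P10 effect was -1.29 for H2afx, -0.92 for Ung, -0.91 for Lig3, -0.84 for Parp1, -0.83 for Lig4, -0.83 for Msh6, -0.75 for Mre11a and -0.73 for Atr, in log2(TPM + 1), beside -0.58 for the median gene. None of the 8 was called after rescaling.

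For 9 of 32 members the acHKO libraries all lay below GFP while the HKO libraries all lay above control at P10. Among all genes at the 1 TPM minimum 47.1% lay below in the acute model and 62.6% above at P10. The share of all genes with both was not counted, so the 9 cannot be set against a background. Of the 9 members Atr, H2afx, Lig3, Lig4, Mre11a and Msh6 are among the 8. Nbn was tested and did not pass (-0.79, limma adjusted p = 0.0736), and Brca1 and Rad51c were not tested at the 1 TPM minimum. Fancm lay below in the acute model and above at 1 month, where 21.1% of all genes lay above, and that difference was not tested. The acHKO over GFP ratio of mean TPM, divided by the HKO over control ratio, was 0.172 for Brca1 and 0.191 for Rad51c against P10, and 0.494 for Fancm against 1 month. In the low-level test the acute minus P10 difference was -1.50 for Brca1 (limma adjusted p = 0.0357) and -1.16 for Rad51c (limma adjusted p = 0.0888). Groups of 2 and 3 libraries were too small for a check of single outlying libraries.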

How the results depend on the processing

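Counts of called members depended on the scale and on single libraries. The 2 higher calls at P10 became 0 after rescaling, 0 with a pseudocount of 0.1, 1 with 0.5, 1 with no filter, 0 with a minimum of 5 TPM, 0 in the low-level test, 10 when each age was fitted on its own 4 libraries, and 0 to 2 with 1 library left out. For the fit of each age alone the share of all genes called is not given, so its 10 calls have no background. The same holds for the counts in this paragraph with other pseudocounts, no filter, a minimum of 5 TPM or 1 library left out. On the deposited TPM 62.6% of all genes lay wholly above at P10. The 0 higher calls at 1 month became 3 after rescaling, 1 with either other pseudocount and 4 in the low-level test. The 6 lower calls in the acute model became 1 after rescaling, 3 with no filter, 2 with a minimum of 5 TPM, 2 in the low-level test and 1 to 9 with 1 library left out, and the 0 higher calls became 1 after rescaling, 1 with no filter and 4 in the low-level test. The 21 lower calls with age in controls became 5 with a minimum of 5 TPM, at which fewer genes are tested. The 8 lower calls for acute minus P10 became 0 after rescaling, 2 with a minimum of 5 TPM, 1 in the low-level test and 1 to 11 with 1 library left out.

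Same-numbered acute libraries deviated together with correlations of -0.003, 0.278 and 0.242, so the numbers were not taken as pairs. With a replicate block the acute model had 3 lower calls, P10 had 2 higher, the control ages 20 lower and acute minus P10 8 lower. The share of all genes called with the block is not given, so these counts have no background.

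Calls of transcript usage in the acute model were 0, and became 1 at a transcript minimum of 0.5 TPM and 3 at 0.2 TPM. For the share on other than protein_coding transcripts, the acute count of 8 was 8 to 9 with 1 library left out. Groups that do not overlap stay so when a library is removed, so apart from the TPM minimum that count could not fall. At P10 the 4 higher members became 4 to 14 with 1 library left out, and the 0 lower became 2 with retained introns alone, 1 at a minimum of 0.5 TPM and 1 to 3 with 1 library left out. At 1 month the 4 higher became 5 to 12 and the 2 lower 3 to 10 with 1 library left out, and the 2 lower became 1 with retained introns alone. With 1 library left out at P10 or 1 month, 1 library stands against 2, and groups overlap less often for any gene. The share of all genes under these settings is not given, so these counts have no background. Except where stated, the cause was not tested. No called member changed sign under these alternatives. Members that were not called did: with age in controls Nbn and Lig3 gave -0.34 and -0.36 on deposited TPM, and 0.14 and 0.09 in the low-level test.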
